A study of Mus musculus with 38 samples.

Results

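The subject here is how differently a pair of mouse CD8 T cell clones answered the same stimulus through the T cell receptor. The clones, sAg1 and sAg3, both carry the phenotype label CD8IL13+ and belong to the type that the series calls CD8γ13. For every probe set (the group of array probes that reads a gene), activated minus dormant was taken in sAg1 and in sAg3, and the second change was subtracted from the first. This value is called the difference in activation: it is positive where the change was more upward in sAg1 and negative where it was more upward in sAg3. The 14 arrays comprised 4 of activated sAg1, 3 of dormant sAg1, 4 of activated sAg3 and 3 of dormant sAg3, out of 38 in the series. Activated cells had been exposed for 14 h to anti-CD3 (a monoclonal antibody coated on plastic from a solution of 0.5 ug/ml), and dormant cells were the same clones at rest. Both states of both clones were grown in RPMI medium with serum, glutamax and 2-mercaptoethanol. Each name stands for 1 clone, so a difference between the names is a difference between a pair of cell lines and not between classes of T cell. Of 35556 rows of the table, 23410 carry a gene name, and 12887 of these reached a group mean of 7 on the log2 scale in at least 1 of the 4 groups and are described here (11334 distinct gene symbols). Creg2 lay just inside that limit and Gli2 just outside it, both with a highest group mean that rounds to 7.0, and their differences were 0.09 and -0.04.

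Anti-CD3 crosslinks the invariant chains of the T cell receptor and so starts its signalling without antigen. Calcium release activates the transcription factor NFAT, while protein kinase C and the MAP kinases activate NF-κB and AP-1, and the genes that follow encode first transcription factors (the Egr and Nr4a families), then cytokines, chemokines, costimulatory receptors and the machinery of growth and division. CD8 T cells that make IL-13 are known as type 2 cytotoxic cells, and the series set its CD8γ13 clones beside a pair of clones it calls Tc1 (labelled CD8IL13-, 8uvmo-2 and 8uvmo-3) and an alloreactive CD8 clone (CD8bm1).

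Array medians over the named probe sets were 7.01 to 7.09 in the activated groups and 6.62 to 6.68 in the dormant groups, and pairs of arrays within these 4 groups had correlations of 0.9956 to 0.9981 over the named probe sets. The median change with activation was therefore above 0 in both clones, at 0.37 in sAg1 and 0.33 in sAg3 over all named probe sets, and it was 0.49 and 0.52 among the dim probe sets left out. Among the 12887 kept probe sets it was smaller, at 0.18 in sAg1 and 0.09 in sAg3. Changes within 1 clone are read against this shift, while it nearly cancels in the difference in activation, whose median was -0.01 over all named and 0.02 over the 12887 kept probe sets. Of 8 measured T cell markers, all 8 lay at 7 or higher, Cd3e (a signalling chain of the receptor) at 12.64 in activated sAg1, 13.01 in dormant sAg1, 12.5 in activated sAg3 and 12.98 in dormant sAg3. Separate cultures are not recorded in the labels, and each p-value below rests on array-to-array spread alone, which may be technical. In bulk RNA, fewer cells of a kind and less RNA per cell cannot be told apart.

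The response of sAg1 was broader than that of sAg3 at 14 h. A probe set was called where limma's moderated test gave a Benjamini-Hochberg adjusted p below 0.05 and the absolute log2 value was at least 1. By that rule 1125 probe sets rose and 798 fell with activation in sAg1 (8.73% and 6.19% of 12887), against 355 risen and 209 fallen in sAg3 (2.75% and 1.62%). The difference in activation itself was called for 1204 probe sets, 9.34% of those kept, with 684 positive (5.31%, 625 distinct symbols) and 520 negative (4.04%, 487 distinct symbols). Among the 684 positive calls, 383 rose in sAg1 and were not called in sAg3, 63 rose in both clones, 56 fell in sAg3 and were not called in sAg1, 7 rose in sAg1 and fell in sAg3, and 175 were called in neither clone taken alone. Among the 520 negative calls, 350 fell in sAg1 and were not called in sAg3, and 29 fell in both. Another 37 rose in sAg3 and were not called in sAg1, and 4 rose in both. The remaining calls were 2 that fell in sAg1 and rose in sAg3, and 98 called in neither. Both sAg3 means were under 7 in 135 of the 520 negative and 75 of the 684 positive calls. For sAg1 these counts were 22 and 79. Such probe sets passed the level limit through the other clone alone, and a fall in the dim clone would be hard to see. The counts within a clone moved with the scaling of the arrays: with each array centred on its median, 474 rose and 1799 fell in sAg1, and 92 rose and 849 fell in sAg3.

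**Figure D1:**
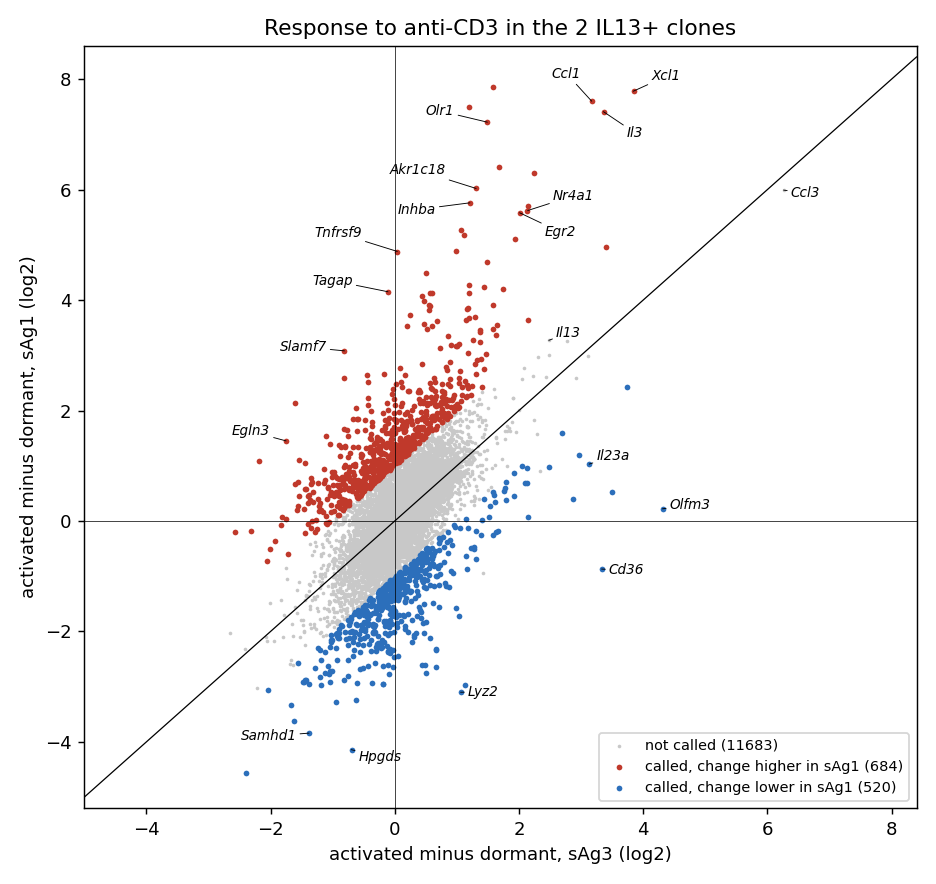
Each point is 1 of the 12887 kept probe sets, with activated minus dormant in sAg3 on the x axis and in sAg1 on the y axis (log2, means of 4 activated and 3 dormant arrays per clone); red points are the 684 positive and blue points the 520 negative calls of the difference in activation, grey points were not called, and the diagonal marks equal change. Olr1, Ccl1, Il3 and Xcl1 stand far above the diagonal, Ccl3 and Il13 lie near it among the uncalled points, and Olfm3, Cd36 and Il23a lie below it on the right.

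A larger change in sAg1 could go with a higher activated level or with a lower dormant level, and both occurred. Of the 684 positive calls, 153 (22.4%) differed between the activated groups alone, 244 (35.7%) between the dormant groups alone, 107 (15.6%) in both states and 180 (26.3%) in neither by the same rule; over all kept probe sets, activated sAg1 was called higher than activated sAg3 in 4.59% and lower in 4.1%, and dormant sAg1 was called higher than dormant sAg3 in 6.11% and lower in 6.53%. Dormant sAg3 was the higher of the dormant groups in all 244 that differed at rest alone, a direction nearly fixed by the selection. Of the 520 negative calls, 51 (9.81%) differed between the activated groups alone, 275 (52.9%) between the dormant groups alone, 77 (14.8%) in both states and 117 (22.5%) in neither, and dormant sAg3 was the lower in all 275. These placements use the same arrays as the calls, so they describe where each difference lay and do not test it again. The difference in activation equals the gap between the activated groups minus the gap between the dormant groups. A call without a called activated gap therefore leaves the dormant gap little choice of sign. The shared direction of the 244, and likewise of the 275, is no separate finding.

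**Figure D2:**
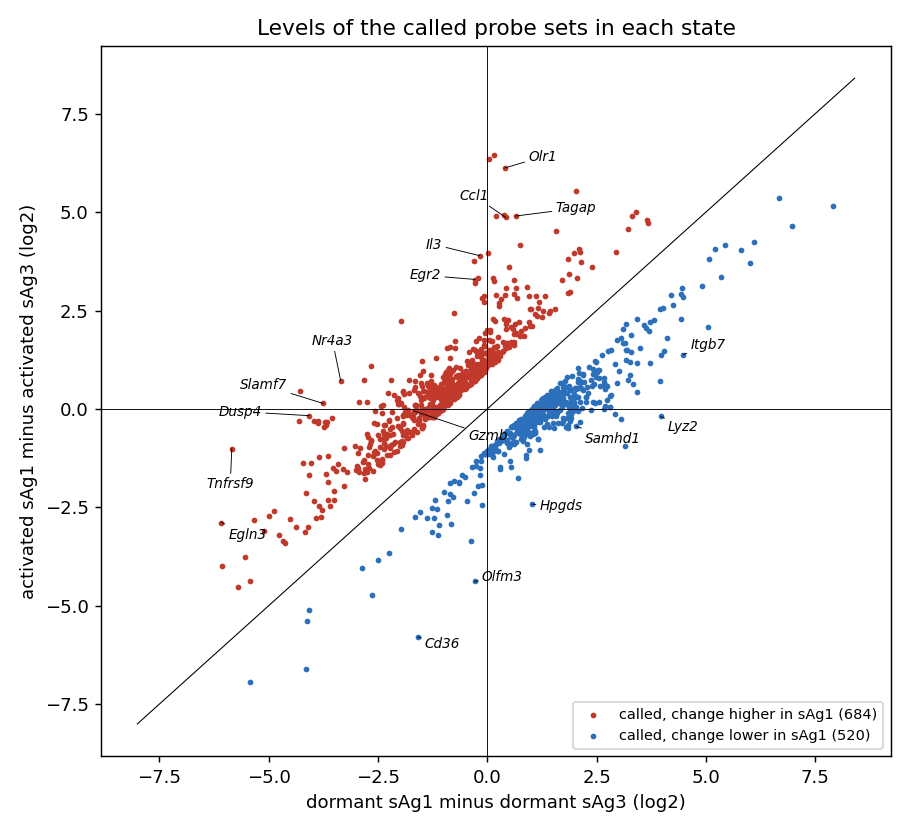
Each point is 1 called probe set, with dormant sAg1 minus dormant sAg3 on the x axis and activated sAg1 minus activated sAg3 on the y axis (log2); red marks the 684 positive and blue the 520 negative calls, and the vertical distance from the diagonal is the difference in activation. Olr1, Ccl1, Il3, Egr2 and Tagap lie near 0 on the x axis and high on the y axis, whereas Slamf7, Dusp4 and Gzmb lie near 0 on the y axis and to the left, where dormant sAg3 exceeded dormant sAg1.

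Transcription factors that the T cell receptor induces were among the genes with the larger response in sAg1. Of 40 on the list, 27 had a positive and 2 a negative difference at an adjusted p below 0.05, with 11 that did not pass, where 15.6% and 14.3% of 19938 symbols (1 probe set each) had a positive and a negative difference over the whole table. Those shares are the scale for every list count below, and they include dim symbols. Among the 12887 kept probe sets, 3437 were positive and 2872 negative at the same adjusted p, both larger shares. Most members of most lists were kept. A list share near or a little above 15.6% or 14.3% is therefore not by itself an excess over kept probe sets. The list median of the difference was 0.71, with a median change of 0.85 in sAg1 and 0.49 in sAg3. Egr2, a zinc finger factor induced by NFAT that restrains activated T cells, read 11.88, 11.78, 12.06 and 12.37 on the activated sAg1 arrays and 6.31, 6.36 and 6.67 on the dormant sAg1 arrays. In sAg3, Egr2 read 8.79, 8.68, 8.85 and 8.62 when activated and 6.72, 6.67 and 6.79 when dormant. The dormant clones both lay under the level limit and the activated groups were far apart without overlap. The difference was 3.57 ± 0.16 (SE, limma adjusted p = 7.6e-11), and 3.29 with values under 7 set to 7.

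Nr4a1, an orphan nuclear receptor that follows receptor signal strength within hours, had the same form. It read 11.27, 11.13, 11.59 and 11.45 in activated sAg1 and 5.72, 5.97 and 5.53 in dormant sAg1, against 8.1, 8.26, 8.21 and 8.08 in activated sAg3 and 6.14, 5.9 and 6.04 in dormant sAg3. Every activated sAg1 array exceeded every activated sAg3 array, and the difference was 3.48 ± 0.16 (adjusted p = 5.97e-11). Its relative Nr4a3 took another form. Nr4a3 read 11.74, 11.71, 11.9 and 11.8 in activated sAg1 and 6.7, 6.52 and 6.6 in dormant sAg1, against 10.89, 11.15, 11.07 and 11.16 in activated sAg3 and 9.97, 9.9 and 10.0 in dormant sAg3. The activated groups lay 0.72 apart and the dormant groups -3.35 apart, so that the difference of 4.07 ± 0.097 (adjusted p = 3.4e-14) lay mostly at rest. Zbtb32, a repressor of cytokine genes, and Egr1, a zinc finger factor that MAP kinase signalling induces, also differed mostly at rest. Zbtb32 averaged 11.64 ± 0.16 in activated and 8.11 ± 0.07 in dormant sAg1, against 11.46 ± 0.06 in activated and 10.86 ± 0.08 in dormant sAg3 (SD), a difference of 2.93. Egr1 averaged 10.04 ± 0.1 and 6.49 ± 0.2 in activated and dormant sAg1, against 9.43 ± 0.08 and 7.78 ± 0.23 in activated and dormant sAg3, a difference of 1.9. Myc, which drives growth and division, averaged 12.0 ± 0.16 in activated and 11.05 ± 0.12 in dormant sAg1, against 10.97 ± 0.15 in activated and 11.14 ± 0.22 in dormant sAg3. Its difference of 1.12 (adjusted p = 9.15e-06) lost the call when all 38 arrays shared 1 estimate of spread (adjusted p = 0.0546).

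**Figure D3:**
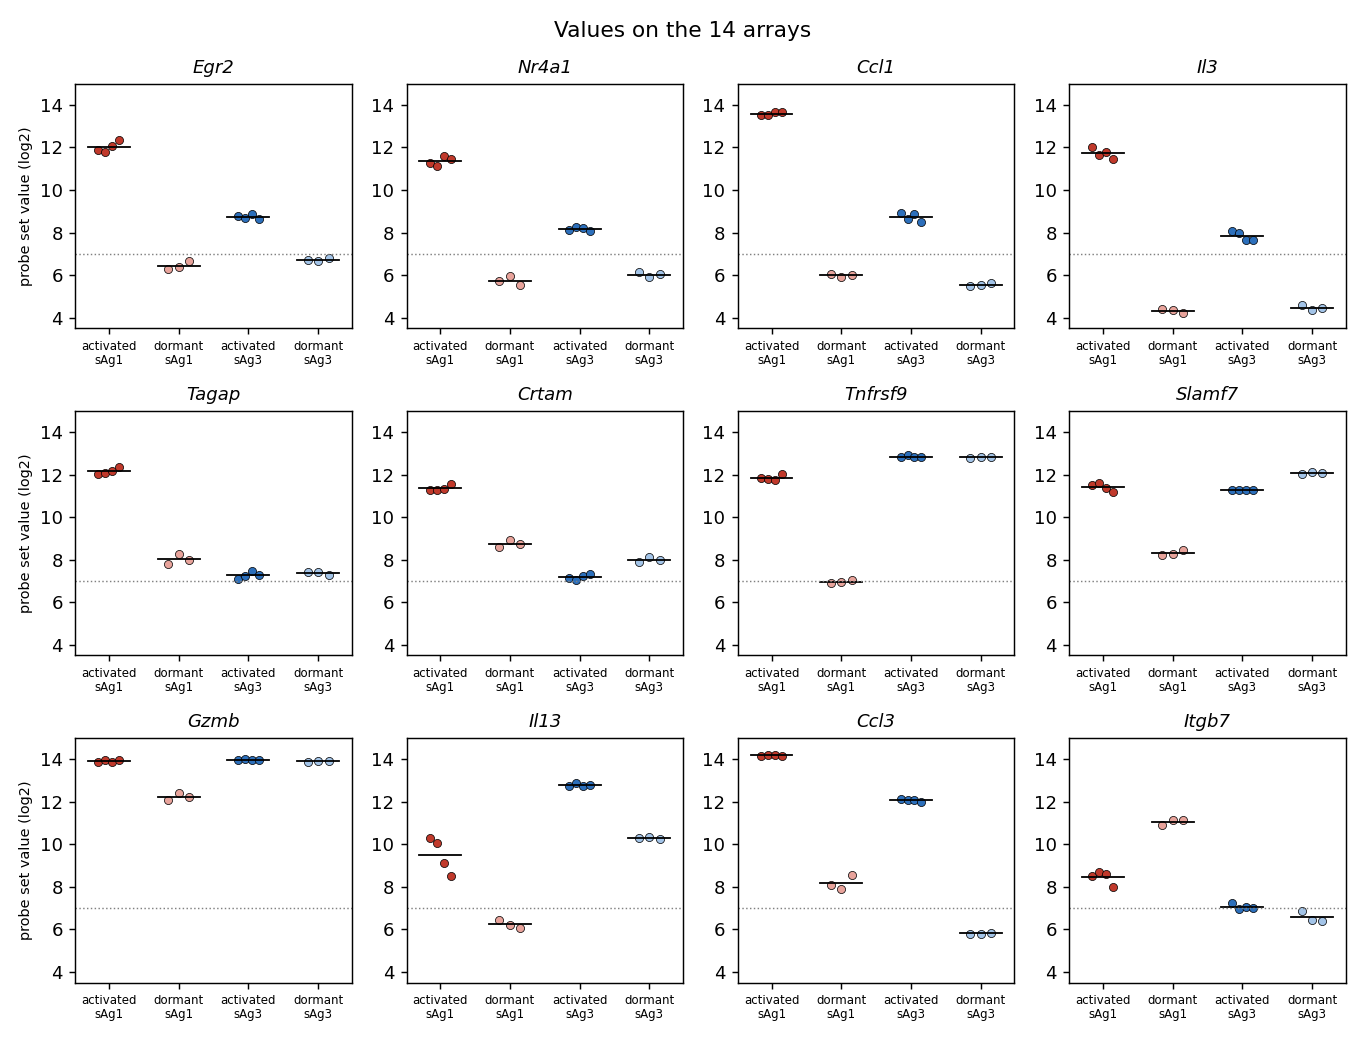
The log2 value of 12 named genes on each of the 14 arrays, with activated sAg1, dormant sAg1, activated sAg3 and dormant sAg3 from left to right, points for arrays, bars for group means and a dotted line at the level limit of 7. Egr2, Nr4a1, Ccl1 and Il3 start low in both dormant groups and part when activated. Tnfrsf9 and Slamf7 are high in both sAg3 groups. Gzmb is lower in dormant sAg1 (mean 12.24) than in every other group, and it lies far above the dotted line throughout.

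Some of the largest positive differences among named single genes belonged to genes whose dormant levels were low in both clones. Olr1, a lectin-like scavenger receptor for oxidised lipoprotein, read 11.99, 12.09, 11.97 and 11.83 in activated sAg1 and 4.76, 4.62 and 4.88 in dormant sAg1, against 6.07, 6.06, 5.68 and 5.58 in activated sAg3 and 4.31, 4.42 and 4.34 in dormant sAg3. All 7 sAg3 arrays stayed under 7, and the difference of 5.73 ± 0.16 (adjusted p = 2.36e-13) was 4.97 when values under 7 were set to 7. Akr1c18, a steroid dehydrogenase that inactivates progesterone, likewise stayed under 7 in sAg3, with means of 10.29 ± 0.32 in activated and 4.27 ± 0.2 in dormant sAg1, against 5.39 ± 0.2 in activated and 4.08 ± 0.22 in dormant sAg3 (difference 4.71). Inhba, which encodes the subunit of activin A, averaged 12.55 ± 0.13 in activated and 6.79 ± 0.21 in dormant sAg1, against 7.61 ± 0.37 in activated and 6.4 ± 0.1 in dormant sAg3 (difference 4.55). Tagap, a GTPase-activating protein of activated T cells, did not move in sAg3 by the call. It read 12.05, 12.07, 12.19 and 12.35 in activated sAg1 and 7.79, 8.27 and 7.99 in dormant sAg1, against 7.08, 7.25, 7.45 and 7.26 in activated sAg3 and 7.44, 7.4 and 7.26 in dormant sAg3. The sAg3 states overlapped and the sAg1 states stood 4.15 apart, for a difference of 4.26 ± 0.15 (adjusted p = 3.35e-12).

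As lists, chemokines and haemopoietic cytokines were mixed, and a few of them had large positive differences. Of 28 measured chemokine ligands, 8 had a positive and 3 a negative difference (list median 0.04), and of 38 interleukins and growth factors 15 had a positive and 4 a negative difference (list median 0.06). In some group 12 of the chemokine ligands and 23 of the interleukins and growth factors reached 7, and under quantile normalization 1 chemokine ligand was negative instead of 3. Ccl1, the ligand of CCR8, read 13.51, 13.52, 13.67 and 13.66 in activated sAg1 and 6.03, 5.92 and 6.01 in dormant sAg1, against 8.9, 8.63, 8.87 and 8.5 in activated sAg3 and 5.49, 5.52 and 5.65 in dormant sAg3. Both clones raised Ccl1 from a level under 7, and activated sAg1 ended 4.86 above activated sAg3. The difference was 4.43 ± 0.12 (adjusted p = 2.36e-13), and 4.86 with values under 7 set to 7. Il3, a growth factor for myeloid progenitors and mast cells, read 12.03, 11.65, 11.78 and 11.46 in activated sAg1 and 4.4, 4.34 and 4.22 in dormant sAg1, against 8.06, 7.99, 7.67 and 7.64 in activated sAg3 and 4.6, 4.37 and 4.46 in dormant sAg3. Dormant values of Il3 were close in the clones, and its difference was 4.05 ± 0.18 (adjusted p = 3.89e-11). Xcl1, which attracts cross-presenting dendritic cells through XCR1, averaged 13.65 ± 0.03 in activated and 5.87 ± 0.09 in dormant sAg1, against 9.7 ± 0.43 in activated and 5.85 ± 0.11 in dormant sAg3 (difference 3.94).

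Smaller positive differences were found for further secreted products. Csf2 (GM-CSF) averaged 11.73 ± 0.15 in activated and 8.94 ± 0.11 in dormant sAg1, against 7.66 ± 0.19 in activated and 6.84 ± 0.25 in dormant sAg3 (difference 1.96, adjusted p = 7.38e-08), so sAg1 was the higher clone in both states. The chemokine Ccl4, which attracts T cells and myeloid cells, averaged 13.13 ± 0.05 and 8.17 ± 0.27 in activated and dormant sAg1, against 10.26 ± 0.35 and 6.85 ± 0.11 in activated and dormant sAg3 (difference 1.55). Il2, the autocrine growth factor of T cells, was dim, with means of 7.59 ± 0.32 in activated and 4.84 ± 0.06 in dormant sAg1, against 6.34 ± 0.19 in activated and 4.9 ± 0.13 in dormant sAg3. Its difference of 1.32 (adjusted p = 4.77e-05) was 0.59 with values under 7 set to 7, below the call. Ifng, the type 1 effector cytokine, rose in both clones and read 14.04, 14.16, 14.08 and 14.06 in activated sAg1 and 10.85, 10.62 and 10.7 in dormant sAg1, against 13.69, 13.65, 13.49 and 13.57 in activated sAg3 and 12.05, 12.03 and 11.85 in dormant sAg3. The groups did not overlap, and the difference of 1.74 ± 0.083 (adjusted p = 1.05e-10) came with dormant groups -1.25 apart and activated groups 0.48 apart, the activated values lying close to the highest of any named probe set on those arrays (14.32 to 14.46).

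The type 2 cytokines that give the clones their label did not show the sAg1 excess. Il13 read 10.32, 10.08, 9.12 and 8.52 in activated sAg1 and 6.46, 6.2 and 6.06 in dormant sAg1, against 12.72, 12.87, 12.72 and 12.79 in activated sAg3 and 10.28, 10.34 and 10.25 in dormant sAg3. Il13 rose in both clones and was higher in sAg3 in both states, by 4.05 log2 units at rest (dormant sAg1 minus dormant sAg3 of -4.05) and 3.26 when activated (-3.26). The difference in activation was 0.78 with a 95% interval of -0.06 to 1.63 (adjusted p = 0.167), but the dormant sAg1 arrays lay under 7, and with values under 7 set to 7 it was 0.03 (adjusted p = 1). Without replicate 4 of activated sAg1, the lowest of its group, it was 1.12 (adjusted p = 0.0036), and with array weights it was 1.03 (adjusted p = 0.0471), both past the call. Il5, the eosinophil growth factor, averaged 7.53 ± 0.83 in activated and 4.56 ± 0.11 in dormant sAg1, against 13.19 ± 0.11 in activated and 10.88 ± 0.13 in dormant sAg3. Its difference was 0.66 (95% interval -0.18 to 1.5, limma adjusted p = 0.254). With values under 7 set to 7 it turned to -1.69 (adjusted p = 0.0108), past the call, since all dormant sAg1 arrays lay under that level. Il4 stayed under 7 in every group and changed by similar amounts (0.82 in sAg1 and 0.74 in sAg3; difference 0.08, 95% interval -0.18 to 0.34). Il10, which dampens antigen presentation, did differ, with means of 10.96 ± 0.61 in activated and 6.77 ± 0.16 in dormant sAg1, against 9.67 ± 0.14 in activated and 7.93 ± 0.08 in dormant sAg3 (difference 2.46 ± 0.3, adjusted p = 6.28e-06). Over the 28 measured genes of the type 2 list, 9 had a positive and 6 a negative difference and the median was 0.03, and Gata3, the master factor of that program, had a difference of -0.47 that was under the fold minimum.

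Ccl3, an inflammatory chemokine, rose strongly in both clones. It read 14.16, 14.2, 14.18 and 14.17 in activated sAg1 and 8.11, 7.91 and 8.54 in dormant sAg1, against 12.12, 12.1, 12.07 and 12.0 in activated sAg3 and 5.79, 5.8 and 5.84 in dormant sAg3. The levels in sAg1 were higher in both states, and the rises were 5.99 in sAg1 and 6.26 in sAg3. The difference of -0.27 (95% interval -0.56 to 0.01, adjusted p = 0.154) turned to 0.92 when values under 7 were set to 7, because dormant sAg3 lay below that level. Activated sAg1 was also close to the highest value of any named probe set on those arrays (14.32 to 14.37), so the size of its rise, and with it the difference, is uncertain at both ends.

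The promoters of 5 of these genes are shown because their products span the contrast. Ccl1 and Il3 had a large difference between the activated groups, and Tnfrsf9 had a large difference at rest. Il13 and Ccl3 differed between the clones in both states, but their difference in activation did not pass. Each is the 250 bases before the first RefSeq transcription start in GRCm38.p6, written 5′ to 3′ on the gene's own strand, with matches to the NFAT core GGAAA on either strand (its reverse complement reads TTTCC) in capitals. The windows lie at chr11:82179813-82180062 (minus strand), chr11:54267280-54267529 (minus), chr4:150919905-150920154 (plus), chr11:53634703-53634952 (minus) and chr11:83649379-83649628 (minus).
Ccl1: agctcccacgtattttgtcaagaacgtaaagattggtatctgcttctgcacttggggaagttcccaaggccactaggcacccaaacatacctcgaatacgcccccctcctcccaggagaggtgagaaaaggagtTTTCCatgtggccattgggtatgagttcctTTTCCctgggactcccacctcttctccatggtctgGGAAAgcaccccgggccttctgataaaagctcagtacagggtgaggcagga
Il3: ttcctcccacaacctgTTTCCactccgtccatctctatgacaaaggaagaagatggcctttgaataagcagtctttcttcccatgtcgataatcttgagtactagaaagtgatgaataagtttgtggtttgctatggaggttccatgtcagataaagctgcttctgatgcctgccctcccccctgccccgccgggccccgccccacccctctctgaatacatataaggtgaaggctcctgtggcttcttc
Tnfrsf9: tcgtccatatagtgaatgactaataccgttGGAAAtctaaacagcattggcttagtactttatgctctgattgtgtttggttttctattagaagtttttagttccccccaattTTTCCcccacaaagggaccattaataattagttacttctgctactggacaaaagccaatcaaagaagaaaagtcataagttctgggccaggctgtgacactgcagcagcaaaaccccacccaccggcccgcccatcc
Il13: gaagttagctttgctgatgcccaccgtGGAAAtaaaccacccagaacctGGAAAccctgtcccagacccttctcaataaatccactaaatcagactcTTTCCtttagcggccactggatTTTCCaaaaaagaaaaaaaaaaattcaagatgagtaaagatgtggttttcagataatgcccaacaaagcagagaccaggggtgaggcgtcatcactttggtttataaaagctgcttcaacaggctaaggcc
Ccl3: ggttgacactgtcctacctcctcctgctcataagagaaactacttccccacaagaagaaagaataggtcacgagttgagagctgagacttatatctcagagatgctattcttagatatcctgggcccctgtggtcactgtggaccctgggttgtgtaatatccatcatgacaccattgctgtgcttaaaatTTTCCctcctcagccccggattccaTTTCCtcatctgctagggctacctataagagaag
The core occurs 3 times in the Ccl1 window, 1 time in Il3, 2 times in Tnfrsf9, 4 times in Il13 and 2 times in Ccl3, and 55.6% of all 32851 mouse windows of this length hold it. Neither the AP-1 motif TGANTCA (in 6.75% of all windows) nor the CRE motif TGACGTCA (in 1.55%) occurs in the 5 windows on either strand. Taking the first window of each called gene, GGAAA was held by 53.9% of 486 positive and 50.3% of 354 negative calls, TGANTCA by 6.79% and 6.5%, and TGACGTCA by 2.88% and 1.98%, beside 55.6%, 6.87% and 1.62% of the first windows of 27025 genes. A match is a run of letters and not a known site, and these motifs can overlap longer elements.

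Surface receptors and signalling proteins of the activated T cell leaned to sAg1 as a list, and several of them were already high in dormant sAg3. Of 50 measured, 31 had a positive and 5 a negative difference with a list median of 0.95, and the median change was 1.23 in sAg1 and 0.45 in sAg3. Tnfrsf9, the costimulatory receptor 4-1BB, read 11.84, 11.78, 11.74 and 12.02 in activated sAg1 and 6.91, 6.95 and 7.05 in dormant sAg1, against 12.82, 12.93, 12.83 and 12.82 in activated sAg3 and 12.77, 12.85 and 12.81 in dormant sAg3. The sAg3 states overlapped at the highest level of the 4 groups, and the dormant groups stood -5.84 apart. Its difference of 4.84 ± 0.082 (adjusted p = 2.6e-16) thus accompanied a lower activated level in sAg1 (-1.0). Slamf7, a self-ligating receptor of the SLAM family, read 11.52, 11.6, 11.35 and 11.16 in activated sAg1 and 8.21, 8.29 and 8.48 in dormant sAg1, against 11.26, 11.27, 11.26 and 11.26 in activated sAg3 and 12.02, 12.11 and 12.09 in dormant sAg3. Activated groups overlapped, dormant groups did not, and the difference was 3.89 ± 0.12 (adjusted p = 5.19e-13). Dusp4, a phosphatase that switches MAP kinases off, averaged 11.56 ± 0.13 in activated and 6.67 ± 0.24 in dormant sAg1, against 11.74 ± 0.06 in activated and 10.75 ± 0.17 in dormant sAg3 (difference 3.9).

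Cd69, the early activation antigen, averaged 10.0 ± 0.16 in activated and 8.79 ± 0.05 in dormant sAg1, against 10.67 ± 0.15 in activated and 10.67 ± 0.14 in dormant sAg3 (difference 1.21, adjusted p = 1e-06). Il2ra, the high-affinity IL-2 receptor chain, averaged 13.29 ± 0.15 in activated and 12.76 ± 0.04 in dormant sAg1, against 13.34 ± 0.04 in activated and 13.11 ± 0.12 in dormant sAg3, and its difference of 0.3 did not reach the fold minimum. Tm4sf19, a tetraspan membrane protein, averaged 12.34 ± 0.12 in activated and 5.93 ± 0.17 in dormant sAg1, against 11.89 ± 0.17 in activated and 10.2 ± 0.3 in dormant sAg3 (difference 4.73). Tfrc, the transferrin receptor of dividing cells, followed that form with 10.37 ± 0.25 and 6.73 ± 0.07 in activated and dormant sAg1, against 10.3 ± 0.15 and 9.15 ± 0.25 in activated and dormant sAg3 (difference 2.49). In each of these 3 genes (Cd69, Tm4sf19 and Tfrc) dormant sAg3 lay above dormant sAg1 without overlap. Il24, an IL-10 family cytokine, had dormant means of 5.34 ± 0.11 in sAg1 and 7.54 ± 0.21 in sAg3 beside activated means of 9.46 ± 0.98 in sAg1 and 8.74 ± 0.4 in sAg3. Its difference of 2.92 (adjusted p = 0.000188) did not pass with values under 7 set to 7 (1.26, adjusted p = 0.195).

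Other surface and signalling genes differed at the activated end. Ubash3b, a phosphatase that limits receptor signalling, averaged 10.37 ± 0.06 in activated and 7.85 ± 0.02 in dormant sAg1, against 7.54 ± 0.26 in activated and 7.96 ± 0.06 in dormant sAg3 (difference 2.94). The genes of the receptor complex and of proximal signalling moved less: of 46 measured, 9 had a positive and 13 a negative difference and the median was -0.05. The coreceptor gene Cd8a had a difference of 1.46 and the adaptor gene Grap2 (GADS) one of -1.18, both with the larger gap between the dormant groups. Cd8a averaged 12.82 ± 0.12 in activated and 11.22 ± 0.16 in dormant sAg1, against 12.34 ± 0.08 in activated and 12.2 ± 0.05 in dormant sAg3. Grap2 averaged 10.12 ± 0.05 in activated and 11.81 ± 0.05 in dormant sAg1, against 10.09 ± 0.05 in activated and 10.59 ± 0.15 in dormant sAg3. The adhesion receptor Cd2 was called at -1.43, and its difference was -0.59 with values under 7 set to 7, where it lost the call.

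Ligands of the TNF superfamily split by gene. Of 15 measured, 7 had a positive and 5 a negative difference, with a median of 0.13. Tnf read 13.31, 13.28, 13.3 and 13.34 in activated sAg1 and 11.2, 10.99 and 11.11 in dormant sAg1, against 11.19, 11.02, 11.07 and 11.0 in activated sAg3 and 10.69, 10.7 and 10.63 in dormant sAg3. The change in sAg3 was 0.4, under the fold minimum. The median shift in sAg3 was 0.33 over all named and 0.09 over the kept probe sets. The difference for Tnf was 1.81 ± 0.072 (limma adjusted p = 1.21e-11). Lta (lymphotoxin alpha) averaged 12.02 ± 0.09 in activated and 9.6 ± 0.14 in dormant sAg1, against 9.11 ± 0.15 in activated and 8.98 ± 0.1 in dormant sAg3 (difference 2.3). Tnfsf11 (RANKL, which drives osteoclasts) had a difference of 2.18 and Tnfsf4 (OX40 ligand) one of 2.94. Both were higher in activated sAg1, at 12.59 ± 0.11 and 10.06 ± 0.18, than in activated sAg3, at 9.49 ± 0.18 and 5.54 ± 0.23. Tnfsf10 (TRAIL), a death ligand, ran the other way, with 6.97 ± 0.32 in activated and 9.25 ± 0.12 in dormant sAg1, against 6.79 ± 0.34 in activated and 7.0 ± 0.21 in dormant sAg3 (difference -2.07).

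Several cytotoxic genes rose in sAg1 from a lower resting level. Of 29 measured, 16 had a positive and 8 a negative difference, and the median was 0.43. Gzmb (granzyme B) read 13.87, 13.97, 13.88 and 13.95 in activated sAg1 and 12.08, 12.41 and 12.24 in dormant sAg1, against 13.95, 14.02, 13.96 and 13.95 in activated sAg3 and 13.88, 13.94 and 13.94 in dormant sAg3. Dormant sAg1 was the lowest group, and the other groups lay together near the highest value of any named probe set (14.32 to 14.76 by array), where a further rise would be hard to see. The difference was 1.62 ± 0.074 (adjusted p = 6.96e-11). Prf1 (perforin) had dormant means of 11.57 ± 0.15 in sAg1 and 13.39 ± 0.06 in sAg3, and activated means of 12.92 ± 0.09 in sAg1 and 13.67 ± 0.03 in sAg3. Its difference was 1.07, and 0.99 without replicate 1 of dormant sAg1. Serpinb9, the inhibitor that shields killer cells from their own granzyme B, averaged 12.06 ± 0.03 in activated and 6.79 ± 0.17 in dormant sAg1, against 9.82 ± 0.25 in activated and 8.76 ± 0.07 in dormant sAg3 (difference 4.2). Crtam, an adhesion receptor of activated killer cells, changed in opposite senses, by 2.6 in sAg1 and -0.82 in sAg3, of which the second was under the fold minimum. It read 11.27, 11.26, 11.33 and 11.54 in activated sAg1 and 8.6, 8.91 and 8.75 in dormant sAg1, against 7.15, 7.03, 7.25 and 7.32 in activated sAg3 and 7.87, 8.14 and 8.0 in dormant sAg3. No pair of groups overlapped, and the difference was 3.41 ± 0.13 (adjusted p = 8.74e-12).

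Of the 20 measured genes of the type 1 program, 10 had a positive and 7 a negative difference, with a median of 0.21. The IL-12 receptor chain Il12rb2 averaged 11.81 ± 0.28 in activated and 10.01 ± 0.23 in dormant sAg1, against 9.52 ± 0.19 in activated and 9.88 ± 0.12 in dormant sAg3 (difference 2.16). Il18r1, the receptor of IL-18, was near absent from sAg3 on this array, at 5.37 ± 0.31 activated and 4.92 ± 0.18 dormant, and stood at 10.02 ± 0.27 in activated and 11.88 ± 0.09 in dormant sAg1 (difference -2.31). The factor Tbx21 (T-bet) had a difference of 0.28, under the fold minimum.

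Growth, division and metabolism gave lists of nearly uniform direction. Of 51 cell cycle and DNA replication genes, 40 had a positive and none a negative difference by limma (11 did not pass; median 1.21); their median change was 0.98 in sAg1 and -0.25 in sAg3. Ccna2 (cyclin A2) read 8.94, 8.8, 8.39 and 7.11 in activated sAg1 and 6.23, 6.25 and 7.46 in dormant sAg1, against 8.93, 8.22, 7.86 and 7.81 in activated sAg3 and 9.81, 8.5 and 8.75 in dormant sAg3. Replicates spread over 1 log2 unit or more in each of these groups and the states overlap in both clones, and the difference was 2.48 ± 0.59 (adjusted p = 0.00324). The list's median level per array ran from 7.79 to 8.80 in activated sAg1, 7.11 to 7.67 in dormant sAg1, 7.69 to 8.14 in activated sAg3 and 7.92 to 8.77 in dormant sAg3, so dormant sAg3 was not lower than the activated groups. With values under 7 set to 7, the count of positive members was 17 instead of 40, and it was 15 when all 38 arrays shared 1 estimate of spread.

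Glycolysis and hypoxia genes had the same direction with tighter replicates. Of 32 measured, 26 had a positive and none a negative difference by limma (6 did not pass; median 0.94), with a median change of 0.59 in sAg1 and -0.35 in sAg3. Tpi1 (triosephosphate isomerase) averaged 12.21 ± 0.02 in activated and 10.57 ± 0.27 in dormant sAg1, against 12.06 ± 0.19 in activated and 12.54 ± 0.12 in dormant sAg3 (difference 2.11). Slc16a3, the lactate exporter MCT4, averaged 11.2 ± 0.1 in activated and 9.11 ± 0.4 in dormant sAg1, against 11.29 ± 0.18 in activated and 11.29 ± 0.12 in dormant sAg3 (difference 2.1). Egln3, an oxygen-sensing prolyl hydroxylase, read 7.75, 7.92, 7.95 and 7.28 in activated sAg1 and 6.0, 6.3 and 6.53 in dormant sAg1, against 10.64, 10.74, 10.19 and 10.87 in activated sAg3 and 12.26, 12.4 and 12.41 in dormant sAg3. It rose in sAg1 and fell in sAg3, the sAg3 arrays staying above all sAg1 arrays, and the difference was 3.2 ± 0.23 (adjusted p = 1.33e-08).

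Ribosome biogenesis genes leaned to sAg1 by small amounts: 38 of 42 members had a positive and 1 a negative difference, with a median of 0.58 and median changes of 1.01 in sAg1 and 0.49 in sAg3, beside 0.37 and 0.33 over all named probe sets. All 42 reached 7 in some group, and the kept probe sets had median changes of 0.18 in sAg1 and 0.09 in sAg3. The differences were modest in size, since 3 of the 42 passed the fold minimum, the largest being Ddx10, a nucleolar helicase (1.7). For the constitutive proteasome the count was 22 of 31 positive and none negative by limma (median 0.33), with no member past the fold minimum. Amino acid and one-carbon genes had 22 positive and no negative differences of 33 by limma (median 0.67), with Mthfd1l, a mitochondrial folate enzyme, at 1.63 and Slc7a5, the leucine carrier of LAT1, at 1.33. Cholesterol and fatty acid synthesis had 19 positive and 3 negative of 32 (median 0.59), led by Hsd17b7, a sterol reductase, at 1.6 and Cyp51, the lanosterol demethylase, at 1.55. The unfolded protein response was near even, with 5 positive and 6 negative of 28 and a median of 0.01 (15.6% and 14.3% over all symbols). These counts were alike with arrays centred on their medians, and a change of over 1.5 times under quantile normalization occurred in the last list, at 2 positive and 8 negative.

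**Figure D4:**
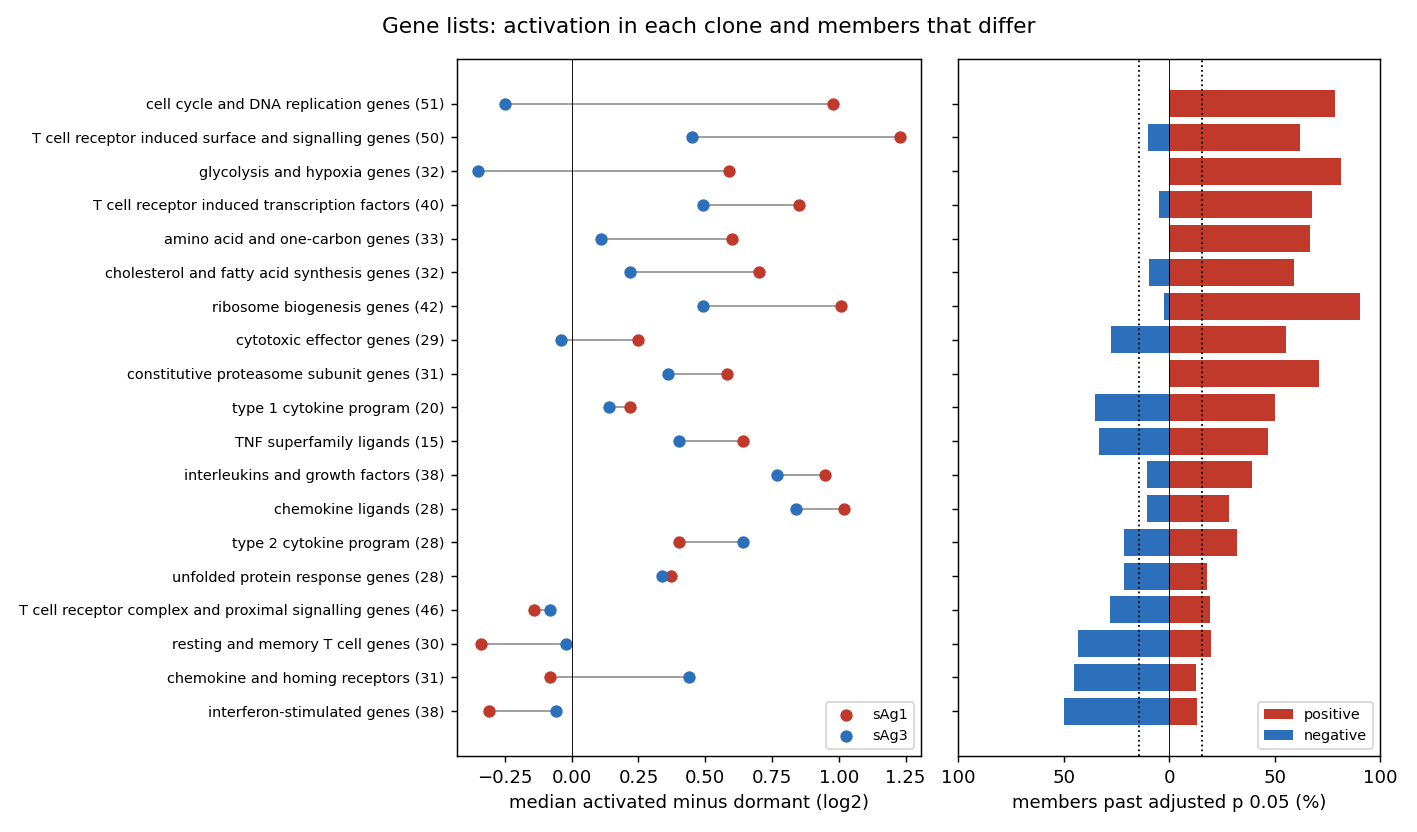
Left, the median change with activation (log2) of 19 gene lists in sAg1 (red) and sAg3 (blue), with the number of measured members in brackets; right, the percentage of members whose difference in activation passed an adjusted p of 0.05, positive to the right in red and negative to the left in blue. Dotted lines mark the percentages over all symbols, 15.6% positive and 14.3% negative. These include dim symbols, and the shares among kept probe sets were larger. The largest negative shares of the 19 lists are those of interferon-stimulated genes, homing receptors and resting genes. Several other lists also pass the left line, and most lists pass the right one.

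Negative differences outnumbered positive ones in the lists of homing receptors, resting genes and interferon-stimulated genes. Of 31 chemokine and homing receptors, 14 had a negative and 4 a positive difference (median -0.25); of 30 resting and memory genes, 13 were negative and 6 positive (median -0.25); and of 38 interferon-stimulated genes, 19 were negative and 5 positive (median -0.3). With values under 7 set to 7, the negative members were 7 homing receptors, 12 resting genes and 13 interferon-stimulated genes. Itgb7, the integrin chain of gut homing, read 8.51, 8.71, 8.6 and 7.98 in activated sAg1 and 10.93, 11.13 and 11.13 in dormant sAg1, against 7.24, 6.97, 7.06 and 7.01 in activated sAg3 and 6.88, 6.46 and 6.4 in dormant sAg3. All sAg1 arrays lay above all sAg3 arrays, and the difference was -3.1 ± 0.2 (adjusted p = 4.27e-09). Cxcr6, a receptor of tissue-resident T cells, averaged 10.51 ± 0.16 in activated and 11.66 ± 0.09 in dormant sAg1, against 6.27 ± 0.24 in activated and 5.55 ± 0.25 in dormant sAg3 (difference -1.87). The CXCL9 and CXCL10 receptor Cxcr3 fell by 1.69 in sAg1, against -0.54 in sAg3 (difference -1.16). S1pr1, which guides lymphocytes out of tissue, had a difference of -1.49 that was -0.32 with values under 7 set to 7, and it lost the call there.

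Among resting genes, Id3, an inhibitor of E proteins, averaged 6.92 ± 0.13 in activated and 9.04 ± 0.7 in dormant sAg1, against 6.28 ± 0.05 in activated and 5.7 ± 0.13 in dormant sAg3 (difference -2.7). Il7r, the receptor for the survival cytokine IL-7, averaged 10.44 ± 0.2 and 11.93 ± 0.09 in activated and dormant sAg1, against 11.67 ± 0.09 and 11.79 ± 0.09 in activated and dormant sAg3 (difference -1.36), so the clones lay closer at rest than when activated. Foxp1, a factor of quiescent T cells, was an exception in that list with a difference of 1.39. Samhd1, a nucleotide-degrading restriction factor, read 8.94, 8.95, 9.06 and 8.55 in activated sAg1 and 12.76, 12.71 and 12.68 in dormant sAg1, against 9.25, 9.42, 9.2 and 9.37 in activated sAg3 and 10.65, 10.79 and 10.62 in dormant sAg3. It fell in both clones to levels 0.44 apart, from dormant levels 2.03 apart, and the difference was -2.46 ± 0.13 (adjusted p = 3.65e-10). Ifi206, a member of the interferon-inducible p200 family, also fell in both clones (-4.56 in sAg1 and -2.4 in sAg3; difference -2.16). The interferon-induced GTPase Gbp3 (1.77) and the RNA sensor Ifih1 (1.54) were positive exceptions in that list.

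Lectin-like receptors shared with natural killer cells were part of the negative set: of 17 measured NK and innate markers, 6 had a negative and 2 a positive difference (median -0.31), and the defining marker Ncr1 stayed under 7 in all groups, as did Klrb1c. Klrd1 (CD94) averaged 10.56 ± 0.22 in activated and 12.91 ± 0.02 in dormant sAg1, against 11.01 ± 0.37 in activated and 11.1 ± 0.03 in dormant sAg3 (difference -2.27). Klrb1f, of the NKR-P1 family, was -2.0 and Klri2 was -1.45; probes of these clustered gene families may read more than 1 member.

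The largest negative differences among named genes were of several kinds. Cd36, a scavenger receptor for lipids, rose in sAg3, with 5.43, 5.49, 4.72 and 4.14 in activated sAg1 and 5.56, 5.64 and 6.25 in dormant sAg1, against 10.77, 10.87, 10.62 and 10.69 in activated sAg3 and 7.12, 7.51 and 7.59 in dormant sAg3. All sAg1 arrays stayed under 7 and the sAg3 groups did not overlap, for a difference of -4.2 ± 0.35 (adjusted p = 7.32e-08). Olfm3, a secreted olfactomedin protein, rose in sAg3 from below the level limit, with 5.52 ± 0.14 in activated and 5.29 ± 0.04 in dormant sAg1, against 9.9 ± 0.25 in activated and 5.58 ± 0.31 in dormant sAg3 (difference -4.09). Hpgds, the haematopoietic prostaglandin D2 synthase found in type 2 cells, fell by 4.14 in sAg1, against -0.7 in sAg3. It read 6.41, 6.59, 6.42 and 5.88 in activated sAg1 and 10.59, 10.42 and 10.39 in dormant sAg1, against 8.5, 8.98, 8.73 and 8.77 in activated sAg3 and 9.54, 9.41 and 9.37 in dormant sAg3. The order of the clones was opposite in the states without overlap (difference -3.45 ± 0.19, adjusted p = 5.03e-10). The cytoskeletal gene Nebl (-4.1), the Arf exchange factor gene Psd2 (-3.25) and the carnosine synthase gene Carns1 (-2.99) were highest in dormant sAg1. The bitter taste receptor genes Tas2r143 (-3.3) and Tas2r135 (-3.05) lay at 7.73 ± 0.17 and 8.38 ± 0.51 in dormant sAg1 and under 7 in the 3 other groups, and Tas2r143 was -0.73 with values under 7 set to 7, below the call.

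Several genes used as myeloid markers had negative differences, led by Lyz2. Lyz2, the lysozyme of macrophages and granulocytes, read 6.36, 7.11, 5.48 and 5.68 in activated sAg1 and 8.75, 9.08 and 9.94 in dormant sAg1, against 8.4, 5.36, 5.66 and 5.96 in activated sAg3 and 5.48, 5.44 and 4.93 in dormant sAg3. Dormant sAg1 lay above every other array, 1 activated sAg3 array stood well above its group, and the difference of -4.16 had an SE of 0.77 (adjusted p = 0.000408). Over 34 measured macrophage and dendritic cell markers, 14 had a negative and 1 a positive difference (median -0.39), of which 2 and 1 remained with values under 7 set to 7. The list's median level per array was 5.98 to 6.36 in activated sAg1, 5.86 to 6.19 in dormant sAg1, 6.16 to 6.94 in activated sAg3 and 5.54 to 5.64 in dormant sAg3. Ctss (cathepsin S), the other called member, read 7.36, 7.74, 6.29 and 6.53 in activated sAg1 and 8.17, 8.07 and 9.11 in dormant sAg1, against 10.86, 10.72, 10.79 and 10.86 in activated sAg3 and 11.01, 10.83 and 10.97 in dormant sAg3 (difference -1.34, adjusted p = 0.0131). It fell in sAg1 and was highest in sAg3, where the states overlapped. Cybb (-2.26), Fcer1g (-1.54), Mpeg1 (-1.43) and Tyrobp (-1.04), chosen after their values were seen, were under 7 in all 4 groups and lowest in dormant sAg3. Cybb averaged 6.2 in activated and 6.95 in dormant sAg1, against 6.44 in activated and 4.93 in dormant sAg3. Only 7 of the 34 reached 7 in any group, and the defining genes Csf1r, Adgre1, Cd14, C1qa, C1qb, C1qc, Mrc1 and Fcgr1 were under 7 in all 4 groups. Stromal markers had 4 negative and 2 positive differences of 20, with Sparc, a matrix protein, at -1.75 (-0.99 and no longer called with values under 7 set to 7), and B cell markers had 3 negative and 1 positive of 11, the positive being the factor Ebf1 (1.03) at 9.38 in activated sAg1. Granulocyte and mast cell markers had 1 of 20 in each direction and erythroid markers 1 positive of 5, which was Tfrc. Over all symbols 14.3% were negative and 15.6% positive, and counts from lists this short are not read as a trait of them. The part of these markers in the other differences was not tested.

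In 9 probe sets the clones moved in opposite directions past the call in each clone. Egln3 and Nebl are given above; the others were chosen after their values were seen, as were Il23a, Penk and Cpd. Prelid2, of the PRELI family of lipid transfer proteins, rose by 2.14 in sAg1 and fell by 1.6 in sAg3, a difference of 3.74. It averaged 9.57 ± 0.24 in activated and 7.44 ± 0.26 in dormant sAg1, against 8.48 ± 0.37 in activated and 10.08 ± 0.17 in dormant sAg3. Sulf2, a heparan sulfate sulfatase, changed by 1.1 in sAg1 and -1.54 in sAg3, with means of 11.86 ± 0.2 in activated and 10.76 ± 0.05 in dormant sAg1, against 8.8 ± 0.26 in activated and 10.34 ± 0.02 in dormant sAg3. The bone sialoprotein gene Ibsp (1.09 and -2.19 in sAg1 and sAg3), the granzyme gene Gzmn (1.39 and -1.05), the phosphodiesterase gene Enpp6 (1.06 and -1.45) and the receptor gene Kir3dl1 (1.54 and -1.1) stayed under 7 in sAg1, so their rise there lay among dim values. With values under 7 set to 7, the difference of Kir3dl1 was 0.79, below the call. In the other sense, Emb (embigin, a partner of monocarboxylate carriers) fell by 1.73 in sAg1 and rose by 1.03 in sAg3, where it stayed under 7, and Nebl fell by 2.97 in sAg1 and rose by 1.12 in sAg3. Il23a, the p19 subunit of IL-23, rose more in sAg3. It averaged 6.46 ± 0.22 in activated and 5.43 ± 0.1 in dormant sAg1, against 11.2 ± 0.13 in activated and 8.07 ± 0.21 in dormant sAg3 (difference -2.1). Penk (proenkephalin) and Cpd (carboxypeptidase D) rose in both clones with differences of -1.32 and -1.09, which were 0.56 and 0.05 with values under 7 set to 7. Penk read 14.21 to 14.28 in activated sAg1, close to the highest value on those arrays (14.32 to 14.37), so its rise of 2.43 there may be understated. The matrix proteoglycan gene Lum completed the 4 negative calls that rose in both clones (-1.76), and it lost the call in that setting (-0.13).

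The other 3 clones of the series give a scale for both members of the pair, on arrays that the difference did not use. The comparison is a description, and dormant 8uvmo-2 was the least even group of the series, with arrays correlating at 0.9858 to 0.9974. In the 38-array fit, 241 kept probe sets rose in all 3 other clones, and of these 218 rose in sAg1 and 137 in sAg3 by the same call, with median changes of 1.62 in sAg1 and 1.11 in sAg3. The level limit that kept them was set on the sAg1 and sAg3 groups themselves. Over all 545 named probe sets that rose in the 3 other clones, dim ones included, 456 rose in sAg1 and 384 in sAg3. The median changes of the 545 were 1.23 in sAg1 and 1.14 in sAg3. Without the level limit, 81 of the 545 (14.9%) were positive and 3 (0.55%) negative calls. On that footing 722 of all 23410 named probe sets were positive and 589 negative calls. Of the 241 kept, 80 (33.2%) were positive calls of the difference and 2 (0.83%) negative, where 5.31% and 4.04% of all kept probe sets were. Of 216 that fell in all 3 other clones, 130 fell in sAg1 and 73 in sAg3, with 38 positive (17.6%) and 51 negative calls (23.6%). Among the 153 positive calls that differed at the activated end alone, the change was nearer to sAg1 than to sAg3 in 59.5% for 8uvmo-2 and 71.2% for 8uvmo-3, and in 17.0% for CD8bm1. For all 684 positive calls these shares were 44.9%, 57.5% and 20.6%, and for the 520 negative calls 59.6%, 62.5% and 18.8%. The CD8bm1 clone thus lay nearer to sAg3 in most of the called probe sets.

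Single genes followed these shares to varying degrees. Olr1 changed by 7.22 in sAg1 and 1.49 in sAg3, and by 6.44, 5.81 and 0.93 in 8uvmo-2, 8uvmo-3 and CD8bm1, in that order. Ccl1 changed by 7.6 in sAg1 and 3.17 in sAg3, and by 7.2, 8.04 and 3.24 in the others. Il3 changed by 7.41 in sAg1 and 3.36 in sAg3, beside 7.36, 2.26 and 0.51 in the same order, and the CD8IL13- clones were themselves apart. Slamf7 rose by 3.08 in sAg1, and its changes of -0.26, 0.06 and -1.27 in 8uvmo-2, 8uvmo-3 and CD8bm1 were closer to the -0.81 of sAg3. For Ccna2 the other clones changed by -2.33, -1.52 and -2.13, below both the 1.66 of sAg1 and the -0.82 of sAg3. The cell cycle list as a whole had median changes of 0.98 in sAg1, -0.25 in sAg3, and -0.97, -0.38 and -1.15 in the others, and sAg1 alone of the 5 clones had a positive median, and so it was for glycolysis and hypoxia except in 8uvmo-3 (0.59, -0.35, -0.22, 0.2 and -0.5 in that order of clones).

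**Figure D5:**
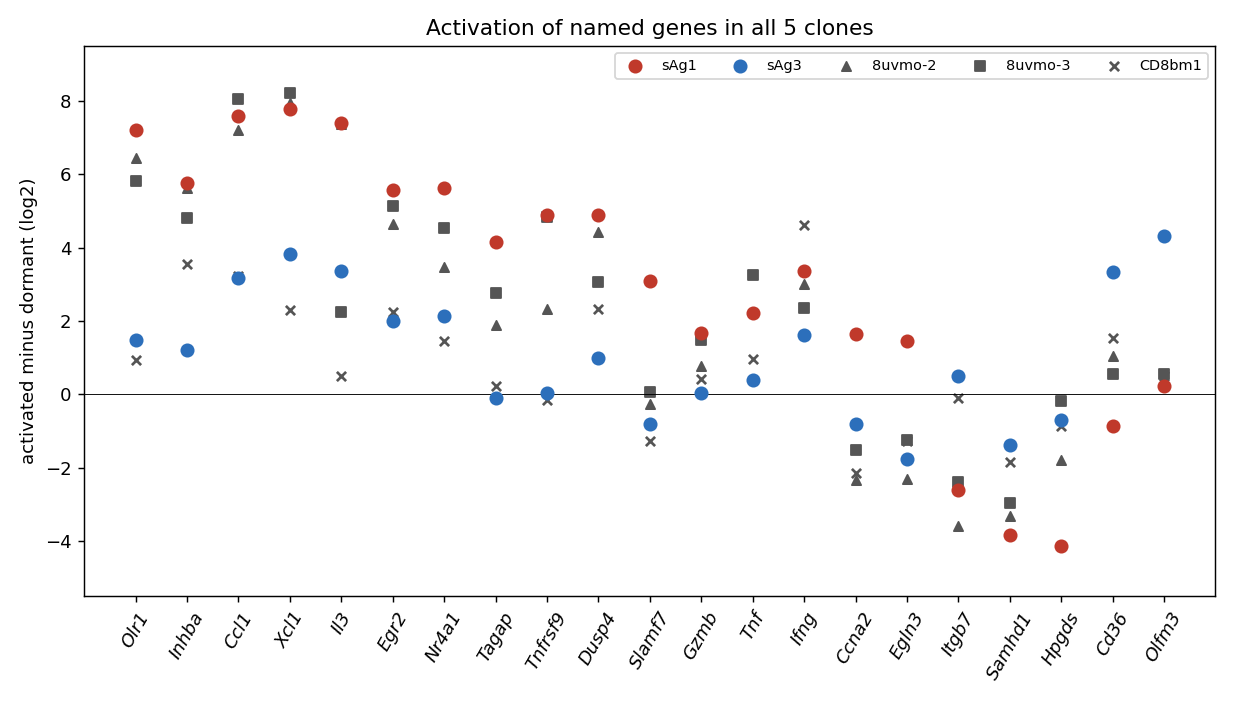
Activated minus dormant (log2) of 21 named genes in sAg1 (red), sAg3 (blue) and, in grey, 8uvmo-2 (triangles), 8uvmo-3 (squares) and CD8bm1 (crosses). For Olr1, Ccl1 and Xcl1 both 8uvmo clones lie near sAg1, for Slamf7, Egln3 and Ccna2 all 3 other clones lie nearer to sAg3 than to sAg1, and for Cd36 and Olfm3 sAg3 lies above the rest.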

How the data were processed

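RNA of T cell clones was labelled with the Affymetrix WT Plus kit and measured on 1-colour arrays, per the labels' protocols. The authors deposited 1 table of log2 probe set values, and the submitters' processing notes name RMA and Partek; versions, build and scan date: not given in the sources used here, and replicates were not pooled. No scanner intensities were used, so the background correction could not be varied. Gene names came from the platform table (21789 rows with 1 symbol, 1621 with several, 12146 with none), and 21698 were updated through Entrez identifiers of GRCm38.p6. Arrays were grouped by their titles.

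A model with 1 mean per group was fitted to the 14 arrays with limma 3.58.1 in R 4.3.3 (moderated variances with a trend on the mean). P-values were adjusted by Benjamini-Hochberg over 23410 named probe sets; the call needed an adjusted p below 0.05 and an absolute log2 value of 1. Precision is limited by 3 or 4 arrays per group. On simulated data with 200 changed probe sets of 23410, 198 were recovered at a log2 difference of 1.5 and 200 at 2, with 0 false calls. The simulated noise was independent between arrays and the other probe sets had no difference, so few false calls were possible. The median called difference was 1.38 for positive and -1.34 for negative calls, smaller in size than any simulated one. Each gene was read by its probe set with the highest mean. Named genes were 21 key genes, the 10 largest single-gene calls in each direction without predicted loci or receptor segments, and up to 4 called members of each of 26 lists (721 of 771 symbols measured); others are said to be chosen after their values were seen. Members and lists were chosen with earlier results of these data known. Alternatives changed the filter, fold minimum, scaling, variance model, array weights, arrays in the fit, probe sets tested, a floor at 7, the replicate block and the arrays included. Other clones were read from a 38-array fit. Promoter windows are from RefSeq.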

Additional observations from a re-analysis of the deposited data

Results flagged for a closer look

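The difference in activation was itself a test between the clones, and it was called for 1204 probe sets by limma (684 positive and 520 negative). In 9 of them the clones moved in opposite directions past the call in each clone: Egln3, Prelid2, Ibsp, Gzmn, Sulf2, Enpp6 and Kir3dl1 rose in sAg1 and fell in sAg3, and Emb and Nebl did the reverse. Ibsp, Gzmn, Enpp6 and Kir3dl1 in sAg1, and Emb in sAg3, rose among values under the level limit.

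Rows without a gene name also carried the contrast. Of 4638 such rows that reached the level of 7, 527 (11.4%) were called, beside 9.34% of the named probe sets. The rows without a name entered no comparison above. With all rows tested together, 776 calls were positive and 946 negative. The excess of positive calls among named probe sets (684 against 520) thus did not extend to all rows.

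In groups of 4 arrays, 1 array stood far from the other 3 in 17 of 214 tested groups of named genes, and chance alone is expected to give about 1 in 20 by Dixon's test. The affected values in activated sAg1 were the highest array of Serpinb9 (12.1), Slc1a4 (8.4), Chac1 (9.09) and Cpd (10.72) and the lowest of Gata3 (9.53), Slc16a3 (11.06) and Cd8a (12.65). In activated sAg3 they were the highest array of Gata3 (10.56), Gzmb (14.02), Tnfrsf9 (12.93), Slamf7 (11.27), Cxcr6 (6.63) and Cyp51 (10.09) and the lowest of Ccl4 (9.74), Tpi1 (11.78), Slc16a3 (11.03) and Mthfd1l (9.46). For Slamf7 and Tnfrsf9 the group's whole range was small beside the difference in activation.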

How the results depend on the processing

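The counts of called, positive and negative probe sets (1204, 684 and 520) were within 1.5 times of these values under every setting except 3: without a fold minimum they were 6309, 3437 and 2872, with a test against a log2 difference of 1 they were 414, 228 and 186, and over all rows of the table, named or not, the negative calls were 946 of 1722. Leaving out each of the 14 arrays in turn gave 1145 to 1234 called, 596 to 732 positive and 498 to 549 negative. Activation within a clone depended on scaling: centring each array on its median gave 474 risen and 1799 fallen in sAg1 and 92 risen and 849 fallen in sAg3, and quantile normalization gave 201 risen and 323 fallen in sAg3. With the replicate number as a block the counts were 1205, 685 and 520, and all 1204 calls were shared. Deviations of same-numbered arrays of a clone had correlations of -0.0535 to 0.268, the highest being replicate 1 of sAg3. These values neither establish nor exclude that arrays of the same number belong together. With values under 7 set to 7, 956 were called (915 of them in common), and Il5 (-1.69), Ccl3 (0.92), Penk (0.56) and Cpd (0.05) changed sign, the floor raising low dormant values by construction. Of 107 named genes, 10 others lost their call at that floor, 3 with quantile normalization and 2 in the 38-array fit. Signal over background limits differences that start from a dim dormant level.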
